A study of Homo sapiens with 4 samples.

Results

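The genes of the mitochondrial respiratory chain and ATP synthase were described in A549 cells with and without knockdown of YTHDF2, in their RNA level and in their m6A peaks. Members were chosen by gene symbol from the table of FPKM values. They carried the prefixes NDUFA, NDUFB, NDUFC, NDUFS, NDUFV, UQCR, COX followed by a digit and ATP5, the exact symbols SDHA to SDHD, and the mitochondrial prefixes MT-ND, MT-CO, MT-CYB and MT-ATP. Pseudogene symbols were dropped. This gave 119 of 28283 listed genes, 106 encoded in the nucleus and 13 in mitochondrial DNA, and these sets were kept apart throughout.

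A549 is a human lung adenocarcinoma line, grown here in RPMI medium with fetal bovine serum. The study compared cells carrying the empty-vector control (shNC) with cells carrying shY2-2, an shRNA against the m6A reader YTHDF2, a protein known for shortening the life of m6A-marked mRNAs. From each, poly(A) RNA was fragmented and gave 1 input library and 1 library of fragments pulled down with an m6A antibody (IP), so that there were 4 libraries with 1 in each group. The shY2-2 libraries come from 1 shRNA line, there were no replicates, and no test of a difference between shNC and shY2-2 was possible. All values below describe these libraries. FPKM scales the fragments of a gene by its exon length and by the size of the library. It keeps no record of fragment numbers, so the depth behind each value was unknown. In cultures of many cells, a lower level in fewer cells and less RNA in each cell cannot be told apart.

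The respiratory chain passes electrons from NADH through complex I, or from succinate through complex II, to complexes III and IV and finally to oxygen. The protons pumped on the way drive complex V, the ATP synthase. Most subunits are translated in the cytosol from nuclear transcripts that carry a cap and can be marked with m6A by the nuclear methyltransferase. The core membrane subunits of complexes I, III, IV and V are instead transcribed from mitochondrial DNA as long polycistronic RNAs and translated inside the organelle. Complex II is encoded wholly in the nucleus.

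The symbols matched the pathway in the table's own annotation. KEGG's oxidative phosphorylation term was attached to 76 of the 78 nuclear structural subunits and to 85 of the 106 nuclear members, while the mitochondrial genes carried no KEGG term. YTHDF2 itself was listed at an FPKM of 3.56 in shNC and 1.02 in shY2-2, a log2 ratio of -1.18. All 9 epithelial and A549 marker genes passed an FPKM of at least 1, with a median log2 ratio of -0.46, and their summed FPKM was 5977 in shNC and 4871 in shY2-2. Of 8 blood, endothelial and fibroblast markers, CD14 and COL1A1 passed, and the list summed to 5.42 and 4.84. Here and below the log2 ratio is log2((FPKM shY2-2 + 1)/(FPKM shNC + 1)), which understates differences of low genes. Ratios were read over the 12268 genes whose FPKM reached 1 in shNC, in shY2-2 or in both, called genes kept. These included 95 nuclear and all 13 mitochondrial members.

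The stretches of RNA at issue are shown first, because they differ in how often the same letters occur elsewhere in the genome. Each line is a window of 21 bases on the transcript strand around GGAC, the core of the commonest m6A motif, in capitals, in the part of a peak common to both lists. They are from 4 of the 5 members with the highest fold enrichment in shNC, and those of MT-CO2 and MT-CO3 were added after the values were seen. Letters and positions are from the GRCh38 reference.
COX18, chr4:73057227-73057247, minus strand, 3′ UTR: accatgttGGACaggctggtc
NDUFS1, chr2:206138557-206138577, minus strand, coding sequence: agtccagtGGACctcacttac
COX20, chr1:244835516-244835536, plus strand, outside the canonical transcript: ggaacaaaGGACatgacagcc
COX11, chr17:54968474-54968494, minus strand, coding sequence: gtggcttgGGACatggaagcg
MT-CO2, chrMT:7920-7940, plus strand, coding sequence: actacggcGGACtaatcttca
MT-CO3, chrMT:9811-9831, plus strand, coding sequence: gcttccacGGACttcacgtca
The exact 21 letters of the COX18 window occurred 797 times in the reference chromosomes on either strand. The windows printed for COX20, COX11 and NDUFS1 occurred 1 time each. They are not the only windows of these genes, and another window of NDUFS1, in a peak of 2.29 in shNC and 1.98 in shY2-2, occurred 74 times. The NDUFS1 window printed lies in a peak of 1.97 and 1.42, and the highest peak of that gene in shNC, at 13.7, held no GGAC. The MT-CO2 window occurred 2 times, with 1 copy outside mitochondrial DNA, and the MT-CO3 window 1 time. Reads from repeated stretches have many places of equal fit, and how the authors' processing treated such reads is not given in the sources used here. The enrichments of COX18, NDUFC2 and NDUFS1 given below may include such reads.

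The mitochondrial genes stood at the top of the expression range in both libraries. The median FPKM of the 13 genes was 406 in shNC and 405 in shY2-2, against 18.9 and 21.7 over the nuclear members kept, a ratio of 21.5 and 18.7. Among the 100 highest genes of the whole table stood 10 mitochondrial genes in shNC and 10 in shY2-2, and 0 nuclear members in each. MT-CO1, the catalytic core of complex IV, was the highest at 3165 in shNC and 2699 in shY2-2. MT-ND3, a small membrane subunit of complex I, was the lowest at 33.2 and 41.6. The range among the 13 genes, MT-CO1 over MT-ND3, was 95.2-fold in shNC and 64.9-fold in shY2-2.

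Most mitochondrial genes were lower in the shY2-2 library, by small amounts. The log2 ratio was below 0 for 10 of 13, against 49.7% of all genes kept, and this count was the same under each scaling of FPKM that was tried. The median was -0.16, against 0.00 for all genes kept, and no mitochondrial gene passed 0.5 in either direction. Their summed share of all FPKM was 4.40% in shNC and 3.87% in shY2-2.

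The genes of complex IV went in both directions. MT-CO1 had a log2 ratio of -0.23. MT-CO2, which carries the copper site that takes electrons from cytochrome c, went the other way, from 1547 to 1820 (log2 ratio 0.23). MT-CO3, the third core subunit, was listed at 969 and 785 (-0.30), the lowest ratio of the 13.

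In complex I, 5 of 7 genes were below 0. MT-ND4 was listed at 754 and 664 (log2 ratio -0.18), MT-ND4L at 534 and 478 (-0.16), and MT-ND5 at 367 and 321 (-0.19), all 3 of them parts of the proton-pumping membrane arm. MT-ND6, the only member encoded on the light strand of mitochondrial DNA, was listed at 218 and 189.7 (-0.20). MT-ND2 was nearly equal at 406 and 405 (-0.0050). MT-ND1 was higher in shY2-2, at 313 and 357 (0.19), as was MT-ND3 (0.31), the highest ratio of the 13. MT-CYB, the cytochrome b of complex III, was listed at 347 and 337 (-0.04).

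The subunits of complex V encoded in mitochondria, MT-ATP8 and MT-ATP6, overlap and are carried on 1 mRNA, yet their levels differed. MT-ATP8 was listed at 1121 and 937 (log2 ratio -0.26) and MT-ATP6 at 211 and 188 (-0.16), a ratio between the genes of 5.31 in shNC and 4.97 in shY2-2. MT-ND4L and MT-ND4, which also overlap on 1 mRNA, stood in a ratio of 0.708 and 0.720. A nuclear copy of MT-ATP6 on chromosome 1, MTATP6P1, was listed at 10.8 in shNC and 69.0 in shY2-2 (log2 ratio 2.57). Reads of near-identical copies can be assigned to either place, so both values are uncertain. Summed, the pair came to 222 and 257, a log2 ratio of 0.21, opposite in sign to MT-ATP6 alone. The other nuclear copies above an FPKM of 1 in either library followed no such pattern. MTCO1P12 was listed at 115 and 103, and MTND2P28 at 25.6 and 23.0.

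**Figure D1:**
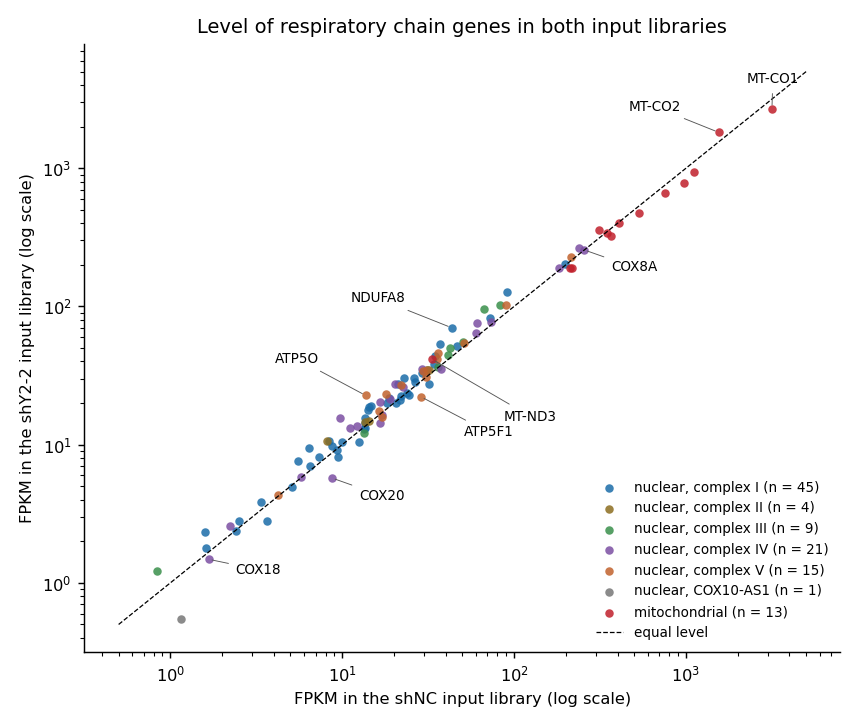
FPKM of the 108 members kept in the shNC input library (horizontal, log scale) and the shY2-2 input library (vertical, log scale), each point 1 gene, coloured by complex, with a dashed line at equal level. Mitochondrial genes, in red, lie at the upper end from 33.2 to 3165 in shNC, and 10 of the 13 lie below the line.

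Peaks were listed for 8 of the 13 mitochondrial genes (61.5%) in shNC and for the same 8 in shY2-2. A peak was any row that the authors' peak caller gave to the gene, and fold enrichment is the authors' ratio of IP over input. No FDR limit was set here. An FDR of at most 0.05 was reached by 56.4% of the 31057 peaks in shNC and by 52.1% of the 27344 in shY2-2. The paper reports fewer peaks in each condition. The shares of all genes kept that had a peak were 81.2% in shNC and 78.4% in shY2-2. No peak was assigned to MT-CO1, MT-ND1, MT-ND4L, MT-ND5 or MT-ATP8, although MT-CO1 was the highest member and MT-ND5 the longest mitochondrial gene. However, a shNC peak of 1.24 assigned to MT-ATP6 lay wholly inside MT-ATP8, which overlaps it.

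MT-ND3 stood apart from the other mitochondrial genes in both lists. A single peak covered its whole length of 346 nt, with a fold enrichment of 7.82 in shNC and 7.74 in shY2-2, at FDRs of 1e-170 and 1e-245. These values stood at the 94.5th and 91.9th percentile of all peaks of each list. The peak held no GGAC on the transcript strand, in letters of the reference. MT-ND3 also had the lowest input level of the mitochondrial genes, at 33.2 and 41.6. Whether this bears on its ratio of IP over input was not tested. MT-CO2 came next, with a peak inside its coding sequence at 3.52 and 3.35, and MT-CO3 with a peak over its whole 784 nt at 2.95 and 2.34. The other 5 were lower. MT-CYB was covered whole by 1 peak of 2.11 in shNC and by 3 separate peaks of up to 1.75 in shY2-2. MT-ND2 carried a peak at its 3′ end (1.97 and 1.6), MT-ATP6 near its start (1.68 and 1.51), MT-ND4 over its 3′ part (1.67 and 1.5) and MT-ND6 over its 3′ part (1.6 and 1.39).

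Peak by peak, mitochondrial enrichment was lower in shY2-2. Of 11 overlapping pairs of peaks, 10 had the lower fold enrichment in shY2-2, with a median log2 ratio of enrichment of -0.20. Over all 21149 overlapping pairs of the lists, 41.9% were higher in shY2-2 and the median was -0.08. Several of these pairs belong to the same gene or the same RNA, so they are not separate observations.

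**Figure D2:**
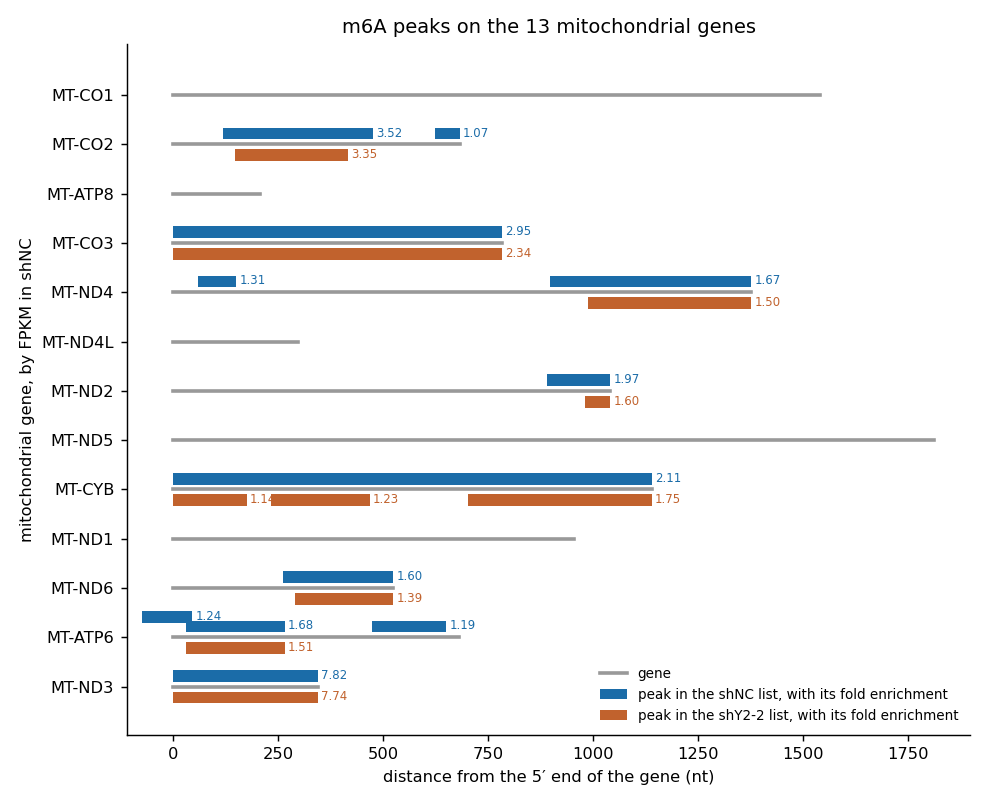
Peaks on the 13 mitochondrial genes, ordered by FPKM in shNC, with distance from the 5′ end of each gene in nt on the horizontal axis. Bars above a gene (blue) are peaks of the shNC list and bars below (orange) peaks of the shY2-2 list, with fold enrichment printed beside them. MT-ND3 is covered whole at 7.82 and 7.74, and 5 genes have no peak assigned to them. A peak assigned to MT-ATP6 begins before its start and lies inside MT-ATP8.

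The nuclear members were higher in shY2-2 more often than genes at large, again by small amounts. Of the 95 members kept, 73 had a log2 ratio above 0, against 50.3% of all genes kept, and 22 were below 0. The median was 0.15, with the middle of the members (25th to 75th percentile) between 0.01 and 0.27. With FPKM rescaled to the same sum over genes outside mitochondrial DNA, 62 of 95 were above 0, against 5325 of 12268 genes, and the median was 0.08. The sign of 11 nuclear members depended on that choice, each with a log2 ratio of at most 0.07 in size as deposited. No nuclear member passed a log2 ratio of 1 (0.986% of all genes kept) or of -1 (2.14%). Above 0.5 stood 5 members (8.18% of all genes kept), namely ATP5O, NDUFA8, COX7A2L, NDUFB10 and UQCRFS1. Below -0.5 stood COX20 alone (11.6%).

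A set of genes like the nuclear members in length and level, with many of the members in it, showed the same tilt. The canonical transcripts of the members were short, with a median of 916 nt against 2912 nt for all genes kept. Among the 578 genes of up to 1000 nt with an FPKM of at least 10 in a library, 76.5% were above 0 and the median was 0.22. These 578 were chosen by length and FPKM alone. They include 44 of the members and cytosolic ribosomal protein genes, whose median length was 827 nt. The 50 nuclear members of up to 1000 nt had a median of 0.16 with 42 above 0. The 45 longer members had a median of 0.10 with 31 above 0, against -0.02 for all longer genes. Other sets of housekeeping complexes were at or above the members. The median log2 ratio was 0.35 for 84 cytosolic ribosomal protein genes, 0.30 for 37 proteasome subunit genes and 0.23 for 78 mitochondrial ribosomal protein genes.

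**Figure D3:**
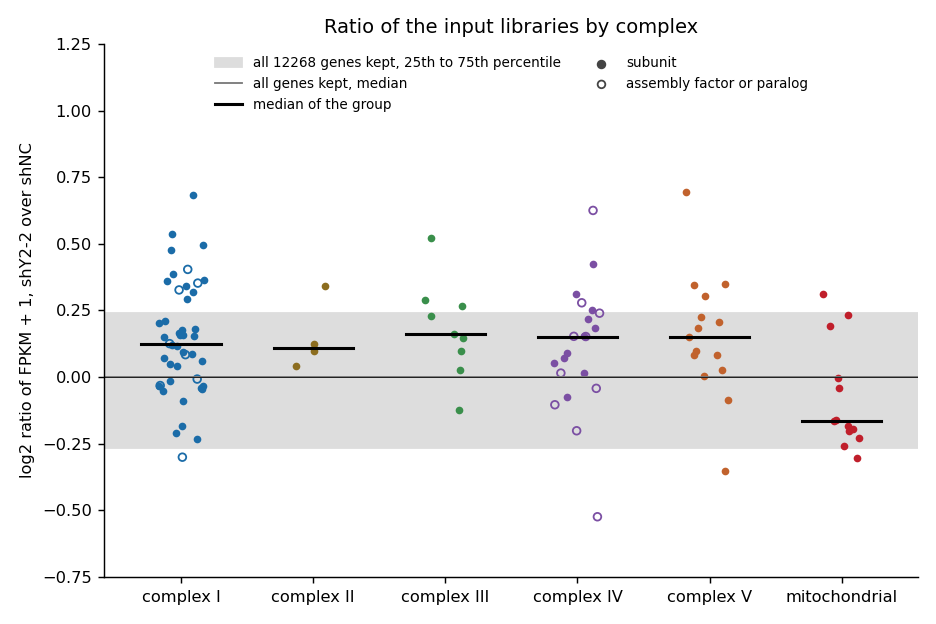
Log2 ratio of FPKM + 1, shY2-2 over shNC, for each member kept by complex (filled, subunits; open, assembly factors and paralogs; COX10-AS1 not drawn) and for the mitochondrial genes. Black bars are group medians, and the grey band and line give the 25th to 75th percentile and median of all 12268 genes kept. Medians of the 5 nuclear groups lie above 0 and that of the mitochondrial genes at -0.16.

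Complex I is the largest, and 27 of its 37 nuclear subunits were above 0, with a median of 0.15. The 7 core subunits, which bind the flavin and the iron-sulfur clusters of the peripheral arm, split 4 to 3. NDUFS8 was listed at 14.8 and 19.0 (log2 ratio 0.34), and NDUFS1, which holds several of these clusters, at 9.39 and 8.14 (-0.19). Of 30 accessory subunits, 23 were above 0. NDUFS5 was the highest of them at 197 and 203 (0.05), a value that fell on the other side of 0 with FPKM rescaled. NDUFB7, a small subunit of the membrane arm, was listed at 90.6 and 126 (0.48). NDUFA8 had the highest ratio of the complex, from 43.3 to 70.2 (0.68), followed by NDUFB10 from 36.9 to 53.9 (0.54). The lowest subunit was NDUFA3, from 12.4 to 10.4 (-0.23).

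In complex II, 4 subunits were kept and all were above 0 as deposited, with a median of 0.11. SDHB, the iron-sulfur subunit, was the highest at 31.8 and 34.8 (log2 ratio 0.13). SDHC, a membrane anchor, had the highest ratio, from 8.13 to 10.6 (0.34). SDHD, the other anchor, was listed at 14.3 and 14.8 (0.04), a sign that depended on the scaling. A further gene ID with the symbol SDHD was listed near 0.

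In complex III, 8 of 9 subunits were above 0, with a median of 0.16. UQCRH, the hinge protein beside cytochrome c1, was the highest at 83.1 and 102 (log2 ratio 0.29). UQCRFS1, the Rieske iron-sulfur protein, followed at 66.7 and 96.2 (0.52), the highest ratio of the complex. UQCRB was below 0, at 13.4 and 12.2 (-0.12). UQCRHL, a near-identical intronless copy of UQCRH, was listed at 0.84 and 1.21, and its reads may not be separable from those of UQCRH.

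Complex IV held the highest nuclear members. COX8A was listed at 254 and 257 (log2 ratio 0.01, with the sign depending on the scaling) and COX6B1 at 237 and 264 (0.15). COX6A1 was listed at 182 and 188 (0.05, sign depending on the scaling). All 3 are small subunits that surround the mitochondrially encoded core. Of 11 subunits, 10 were above 0 as deposited, with a median of 0.15. With FPKM rescaled to the same sum over genes outside mitochondrial DNA, 7 were above 0 and the median was 0.08. COX7A2 had the highest ratio of the 11 subunits, from 20.4 to 27.7 (0.43), and COX7B was below 0, at 37.3 and 35.4 (-0.08). COX7A2L, a paralog that joins complexes III and IV into a supercomplex, was listed at 9.70 and 15.5 (0.63). Other isoforms, COX6B2 and COX7A1, and the paralog NDUFA4L2 stayed under an FPKM of 1 in both libraries.

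Complex V had 13 of 15 subunits above 0 as deposited, with a median of 0.15. With FPKM rescaled to the same sum over genes outside mitochondrial DNA, 11 of the 15 were above 0. The same rescaling left 24 of 37 above 0 in complex I, 3 of 4 in complex II and 7 of 9 in complex III. The F1 part, where ATP is made, had a median of 0.08. Its catalytic subunit ATP5B was the highest at 214 and 226 (log2 ratio 0.08), and ATP5C1, the central rotor shaft, was listed at 89.4 and 102 (0.19). The Fo and stalk subunits had a median of 0.22. The highest and the lowest ratio of the complex were both of subunits of the peripheral stalk, which holds F1 still. ATP5O, the stalk subunit OSCP, went from 13.7 to 22.7 (0.69), the highest ratio of all nuclear members, and ATP5F1, subunit b, from 28.7 to 22.2 (-0.35). ATP5G1, ATP5G2 and ATP5G3 encode the same mature ring subunit c, and their sum went from 84.8 to 104 (0.29).

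The 17 assembly factors, which build the complexes without staying in them, were closer to even, with 10 above 0 and a median of 0.08. The 9 factors of complex IV had a median of 0.01, which was -0.05 with FPKM rescaled to the same sum over all genes. COX20, a chaperone of newly made MT-CO2, was listed at 8.70 and 5.74, the lowest log2 ratio of all nuclear members at -0.52. COX11 and COX18, which act on the copper site of MT-CO1 and on the membrane insertion of MT-CO2, were listed at 5.75 and 5.82 (0.01, sign depending on the scaling) and at 1.67 and 1.48 (-0.10). Among the 8 factors of complex I, NDUFAF4 was the highest in ratio, from 5.54 to 7.66 (0.40), and NDUFAF1 the lowest, from 3.67 to 2.79 (-0.30). Of 6 antisense and readthrough genes caught by the symbol rule, COX10-AS1 was kept, at 1.16 and 0.55 (-0.48).

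In the peak lists, nuclear members carried peaks at a high rate. Of the 95 kept, 87 (91.6%) had a peak in shNC and 89 (93.7%) in shY2-2, and 87 had a peak in both, against 72.7% of all genes kept. Among all genes with an FPKM of at least 10 the shares were 92.2% and 90.4%. Among genes of up to 1000 nt with that FPKM they were 75.3% and 74.7%, against 84.0% and 88.0% of the 50 nuclear members of that length kept. All 45 longer members had a peak in each list. In all 87 members with peaks in both lists, at least 1 pair of peaks overlapped by at least 50% of the shorter. No member had a peak in shNC and none in shY2-2 (8.58% of all genes kept). The reverse held for 2 (5.7%). NDUFA7, an accessory subunit of complex I, had a peak of 766 nt with a fold enrichment of 3.47 (FDR 7.94e-23), and NDUFAF2 a peak of 1.24. NDUFC2-KCTD14, a readthrough gene that overlaps NDUFC2 and was not kept, likewise had peaks of up to 1.23 in shY2-2. Whether these lists differ at such genes was not tested. No peak in either list was found for 6 members (13.1% of all genes kept), which were NDUFA1, NDUFA2, NDUFB7, ATP5D, ATP5G2 and ATP5J2. NDUFB7 was among the highest subunits of complex I, and NDUFA1 was listed at 72.3 and 81.8.

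Peaks on nuclear members were wide relative to the transcripts. A median of 57.6% of the canonical transcript lay in peaks in shNC and 53.9% in shY2-2, against 19.9% and 15.0% for all genes kept with a peak. For members of up to 1000 nt the medians were 80.1% and 86.4%, and for all genes of that length with an FPKM of at least 10 they were 67.7% and 72.6%. The transcript lay wholly in peaks for 11 members in shNC (0.595% of all genes kept) and for 14 in shY2-2 (0.848%), with 8 in both (0.367%). These 8 were NDUFA6, NDUFA12, NDUFA13, NDUFB3, NDUFS5, UQCRH, COX6B1 and ATP5H. The position of a methylated base is not resolved by a peak that spans the RNA from end to end. GGAC on the transcript strand was present in 65.7% of the 245 peaks of nuclear members in shNC and in 66.1% of the 257 in shY2-2, against 61.0% and 60.6% of all peaks. Per kilobase of peak it was less frequent than in all peaks, 3.65 against 4.10 in shNC and 3.41 against 3.95 in shY2-2.

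Peaks of nuclear members were annotated to the 5′ UTR more often than peaks at large. In shNC the share was 29.8% (95% Wilson interval 24.4 to 35.8) against 15.5% of all peaks, and in shY2-2 it was 33.5% (28.0 to 39.4) against 15.9%. The 3′ UTR held 52.2% and 51.0% of the members' peaks, against 59.1% and 59.5%. Complex IV had the highest 5′ UTR share of the larger groups, at 40.4% of 52 peaks in shNC and 42.9% of 49 in shY2-2. Transcript length moved with these shares. Peaks of the 44 members of up to 1000 nt with an FPKM of at least 10 were in the 5′ UTR in 47.1% (36.8 to 57.6) in shNC, against 37.8% (34.7 to 41.1) of the peaks of all such genes, and the intervals overlapped. In shY2-2 these shares were 51.1% (41.0 to 61.1) and 40.8% (37.7 to 44.0). Peaks annotated to other exons were fewer on these members, at 7.06% (3.28 to 14.6) in shNC against 21.8% (19.2 to 24.6) of the peaks of all such genes. In shY2-2 the exon shares were 8.70% (4.47 to 16.2) and 21.2% (18.7 to 23.9). The intervals overlapped in neither list. However, all such genes were chosen by length and FPKM alone and include the members, mitochondrial genes and MIR3658. Peaks of genes without an annotated UTR can only be labelled exon, as all mitochondrial peaks were. How much of the gap comes from this was not tested. A gene can also give several peaks, so peaks are not separate observations. For longer members the 5′ UTR shares were 17.7% in shNC and 20.0% in shY2-2, against 14.9% and 14.9% for all longer genes. Their exon shares were 24.8% and 20.7%, against 23.8% and 22.6%. Each peak carried 1 label, so a low exon share does not mean that peaks avoided coding sequence. Overlap was also read for peaks comparable with a canonical coding sequence, over members of all lengths. In shY2-2, 73.2% of the nuclear members' peaks overlapped it, against 47.8% of all peaks. In shNC the members' share was likewise above that of all peaks, which was 53.3%. Intervals cover the counting of peaks only.

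**Figure D4:**
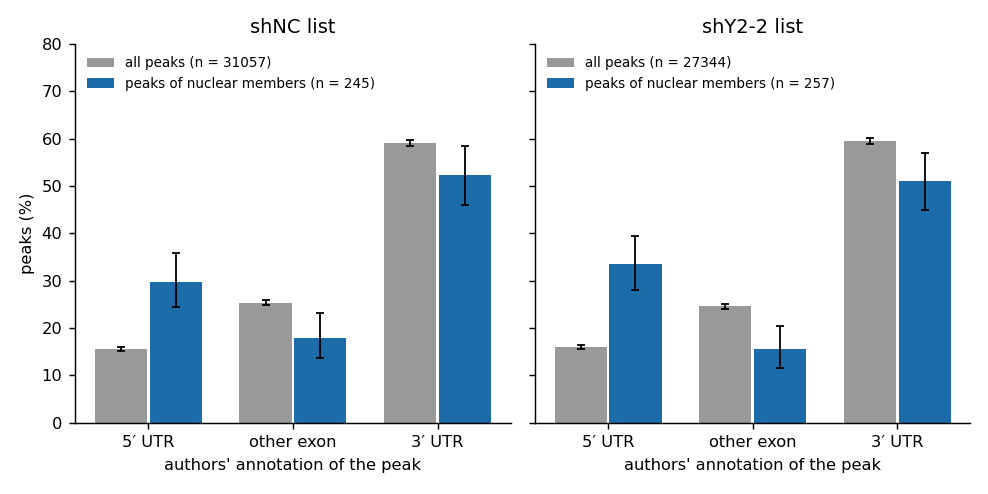
Share of peaks (%) by the authors' annotation in the shNC list (left) and the shY2-2 list (right), for all peaks (grey) and peaks of nuclear members (blue), with 95% Wilson intervals. The 5′ UTR bar of the nuclear members stands at 29.8% and 33.5%, above that of all peaks at 15.5% and 15.9%.

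The highest fold enrichments among the members lay on assembly factors and complex I subunits. COX18 led the members in both lists, with 19.8 (FDR 0.000112) in shNC and 28.9 (FDR 2.29e-06) in shY2-2, both in its 3′ UTR. Its shNC peak of 19.8 held no GGAC, and the repeated window shown for COX18 lies in a neighbouring shNC peak of 3.40 that falls inside the same shY2-2 peak. In shNC the next were NDUFC2 with 16.8, COX20 with 16.0, NDUFS1 with 13.7 and COX11 with 12.2. The shY2-2 peaks that overlapped these stood at 9.25 and 3.39 for NDUFC2, 3.08 for COX20, 8.09 for NDUFS1, and 3.70 and 1.41 for COX11. In shY2-2 the next after COX18 were NDUFA13 with 13.9, NDUFB1 with 13.9 and NDUFA8 with 13.2. The shNC peaks that overlapped these stood at 7.53 and 2.02 for NDUFA13, 2.78 for NDUFB1 and 10.1 for NDUFA8. NDUFA8 was thus above 10 in both lists, with FDRs of 1.26e-33 and 3.16e-52, in peaks that ran over almost its whole transcript.

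Many of the high values were shared by large numbers of peaks. Of the 5890 peaks with a fold enrichment of at least 4 in shNC, 70.4% carried 1 of 14 values, and of 6252 in shY2-2 79.8% did. The most frequent value was 6.87 in shNC, carried by 626 peaks, and 6.94 in shY2-2, carried by 1376. Among members, 22 of 42 such peaks in shNC and 40 of 46 in shY2-2 had 1 of these values. UQCRFS1 illustrates this. Its enrichment of 10.4 in shY2-2 came from a peak with an FDR of 0.205 and a value that 263 peaks shared, while its main peak of 809 nt stood at 2.05 and 2.06. For NDUFS1 the highest peaks in shY2-2, at 10.4, lay elsewhere than the shNC peak of 13.7 and also had an FDR of 0.205. The value 13.9 of NDUFA13 and NDUFB1 was carried by 79 peaks, at FDRs of 1e-48 and 1e-140. In contrast, the values of MT-ND3 were shared by 2 peaks in each list, those of NDUFA8 by 2 and 1, and those of the main 3′ UTR peak of SDHC, 7.23 and 7.29, by 1 and 2. Read numbers behind a peak were unknown, and their part in these values was not tested.

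Over overlapping pairs of peaks, higher and lower enrichment on nuclear members were about as frequent. Of 243 pairs, 122 were higher and 120 lower in shY2-2, with a median log2 ratio of 0.00, against 41.9% higher and a median of -0.08 over all pairs. A log2 ratio above 1 was found in 14 pairs and below -1 in 17, and 163 stayed within 0.5. A peak can enter several pairs, and NDUFA13 alone gave 8, so these are not separate observations. By the highest fold enrichment of each member, 50 were higher and 37 lower in shY2-2. This count was not made for all genes, so it is not read as a trait of the members. Of all peaks, 19.0% in shNC and 22.9% in shY2-2 had a fold enrichment of at least 4. Members with peaks in both lists had a median log2 ratio of FPKM of 0.15 (n = 87), and the 8 others had 0.13.

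**Figure D5:**
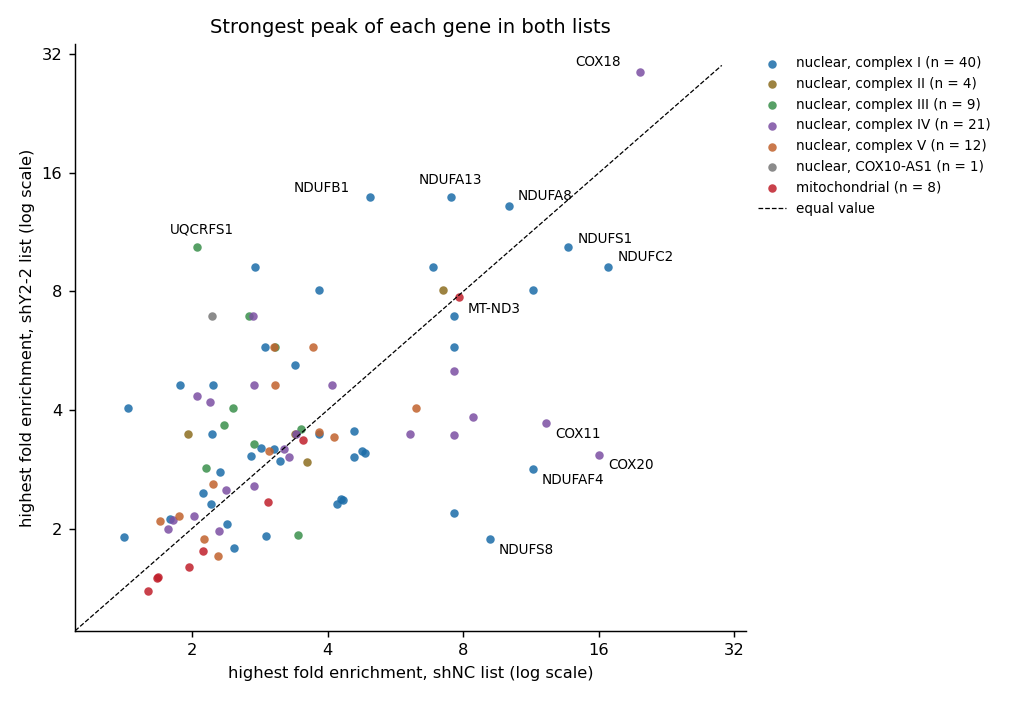
Highest fold enrichment of each member with a peak in both lists, shNC (horizontal, log scale) against shY2-2 (vertical, log scale), coloured by complex, with a dashed line at equal value. The peaks behind the 2 values of a member need not overlap. COX18 lies at 19.8 and 28.9, COX20 and COX11 lie far below the line, and MT-ND3 lies on it at 7.82 and 7.74.

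Genes of the pathway that the symbol rule did not catch leaned the same way as the nuclear members. Of 16 electron carrier and complex II and III genes, 12 were above 0, with a median of 0.18. Cytochrome c (CYCS) was listed at 38.5 and 44.9 (log2 ratio 0.22) and cytochrome c1 (CYC1) at 73.3 and 83.0 (0.18). The highest were SDHAF1, from 22.2 to 36.3, UQCC3, from 10.5 to 17.5 (0.69 for both), and SDHAF2 (0.43), all assembly factors. The lowest were ETFDH (-0.33), SDHAF3 (-0.23) and ETFB (-0.21). Of 18 gene IDs for complex IV assembly genes, 2 of them for SCO2, 16 were above 0, with a median of 0.35. The highest were SCO2 under the lower of its 2 gene IDs, from 0.72 to 2.19 (0.89), HIGD1A, from 16.8 to 30.1 (0.80), and COA6, from 16.4 to 29.4 (0.80). The lowest were PET117 (-0.45), COA5 (-0.24) and COA4 (0.08). Of 11 complex I and V assembly genes, 8 were above 0, with a median of 0.28. TMEM126B (0.51), ECSIT (0.43) and FOXRED1 (0.35) were the highest, and ATPAF2 (-0.42), ACAD9 (-0.17) and NUBPL (-0.10) the lowest.

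Genes that make and keep mitochondrial RNA were nearer to even, with 13 of 21 above 0 and a median of 0.13. POLRMT, the mitochondrial RNA polymerase, was listed at 16.1 and 17.3 (log2 ratio 0.10), and TFAM, which packages mitochondrial DNA, at 14.9 and 16.8 (0.16). The highest were FASTKD2 (0.60), FASTK (0.43) and the poly(A) polymerase MTPAP (0.41). The lowest were SLIRP, from 23.3 to 18.6 (-0.31), PNPT1 (-0.22) and FASTKD1 (-0.18). LRPPRC, which forms with SLIRP the complex that holds mitochondrial mRNAs stable, was listed at 32.8 and 30.0 (-0.13). Of the regulators of nuclear respiratory genes, 8 of 9 were kept and 6 of these were above 0. NRF1 was listed at 4.48 and 6.15 (0.38), ESRRA at 7.08 and 12.3 (0.72), and GABPB1 at 3.13 and 4.59 (0.44). GABPA, the DNA-binding partner of GABPB1, was listed at 5.39 and 2.60 (-0.83), and YY1 at 13.3 and 11.6 (-0.19). PPRC1 (0.19), PPARGC1B (0.24) and GABPB2 (0.09) were above 0, and PPARGC1A was not kept, at 0.0045 and 0.0028.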

How the data were processed

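Reads were aligned by the authors to GRCh38 using HISAT2, and the deposited FPKM values per gene came from StringTie on the input libraries. The authors called peaks with exomePeak on IP against input in each condition and annotated them with ChIPseeker. The deposited peak lists give a p-value, a log10 score of the FDR and a fold enrichment, which is the ratio of IP to input. Tool versions, the annotation release, the limit for calling and the strand setting are not given in the sources used here.

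The log2 ratio used a pseudocount of 1. No test was run, since each group had 1 library. Members and gene lists were chosen with earlier results of these data known. Each gene's role was set from general knowledge. Named were all mitochondrial genes and, per complex, the subunits highest in FPKM and the members highest and lowest in ratio. Also named were the 5 members with the highest fold enrichment per list, those with an FDR of at most 0.001 in 1 list and no peak in the other, and the 3 highest and lowest genes of each further list (all regulators). Others named were chosen after their values were seen. Peak pairs overlapped by at least 1 bp of exon on the same strand. Canonical transcripts were those of GENCODE release 44, and GGAC was searched on the transcript strand. Some of the windows found are not reported here. FPKM columns without a sample numbered 0. Steps were tested on simulated data. Python 3.11.15, pandas 2.3.3, NumPy 2.4.6, SciPy 1.17.1, pysam 0.24.0 and matplotlib 3.10.9 were used.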

Additional observations from a re-analysis of the deposited data

How the results depend on the processing

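The medians and counts of log2 ratios, the mitochondrial share of FPKM and the counts of members with a peak were recomputed, each with those settings that bear on it, among a pseudocount of 0.1, an FPKM minimum of 5 or none, centred or rescaled ratios, structural subunits alone, and stricter limits on peaks. Peak locations, pairs of peaks, transcript coverage and GGAC rates were not. Of 65 recomputed summary values, 56 stayed within 1.5 times (counts and shares) or 0.1 (log2) of the value given, and none changed sign. The median of the complex IV assembly factors, whose sign changed with FPKM rescaled, was not among them. With a log2 limit of 0.5 in place of 1, the nuclear members past it were 5 higher and 1 lower, where there were 0. With a fold enrichment of at least 4, nuclear members with a peak numbered 30 in shNC, 33 in shY2-2 and 14 in both lists. Mitochondrial members with a peak numbered 4 in shNC and 3 in shY2-2 at a fold enrichment of at least 2, and 1 in each at 4. The shares of all genes at these limits are not given, so these counts are not read as a trait of the members. Of all peaks, 19.0% in shNC and 22.9% in shY2-2 reached 4, against 16.7% and 17.5% of the peaks of nuclear members. Of 156 recomputed ratios of 39 named genes, 9 moved by over 0.1, for COX18, COX20, NDUFAF1 and NDUFC2-KCTD14. The counts of mitochondrial members below 0 under these settings, and that of nuclear members with FPKM rescaled over all genes, were chosen after seeing the data. No paired analysis was possible because each group had 1 library, and for the same reason no replicate could be left out.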
